A study of Mus musculus with 10 samples.

Results

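The insulin-like growth factor (IGF) family was examined in adult mouse cortex, in animals with a knock-in allele of Chd8 (KI) and in wild-type (WT) animals. The 10 genes are the ligands Igf1 and Igf2, the receptors Igf1r and Igf2r, and the binding proteins Igfbp2 to Igfbp7. They were chosen by name as a family, with the fall of Igf2 in the same comparison already known. All 10 were found among the 13661 genes that the authors' deposited table lists by NCBI gene number, and all 10 had a p-value there. Because that comparison prompted the choice, the fold changes of the family are given as a description and support no claim about it.

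The cortex came from males aged 8 weeks, and poly(A) RNA was sequenced as 5 WT libraries and 5 Chd8 KI libraries. The series title describes the model as a duplication of Chd8, a chromatin remodeller gene whose disruption is found in some people with autism. The site of the insertion, the zygosity, the strain and the litters are not given in the labels. Each library is labelled as coming from a single mouse, and the deposited errors reflect the spread between these libraries. The table holds 1 mean per gene over all 10 libraries and 1 fold change between genotypes. Values of single libraries, their depth and any overlap between the groups were therefore not analysed here. Which genotype is the numerator is not stated in the file; KI was taken as the numerator, because Chd8 then has a positive value (log2 fold change 0.49, standard error 0.10 in the authors' deposited table). Every direction below depends on this choice. In RNA from whole tissue, fewer cells of a type, less RNA per cell and a different share of non-cortical tissue in the sample cannot be told apart.

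IGF1 and IGF2 are secreted peptides related to insulin that promote growth, survival and myelination. Their signal passes mainly through IGF1R, a receptor tyrosine kinase that activates the PI3K, Akt and mTOR cascade and the MAP kinase cascade. IGF2R, which is also the cation-independent mannose 6-phosphate receptor, takes up IGF2 for degradation and carries lysosomal enzymes. The IGF binding proteins hold the peptides outside cells and either limit or prolong their action. In the adult brain IGF2 and IGFBP2 are made largely by the meninges and the choroid plexus, IGFBP7 by blood vessels, and IGF1 by interneurons and microglia, while transcripts of Igfbp4, Igfbp5 and Igfbp6 are also found in neurons.

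Igf2 was the family member that passed the threshold of an adjusted p of 0.05, and it fell in KI cortex. Of the 10 family genes, 1 was called lower in the deposited results and 0 were called higher. Over all 13660 genes with a p-value, 0.0659% were called lower, 0.00732% higher and 0.0732% in either direction. Since the family was put together with the fall of Igf2 in view, nothing is read from its count against that background. An unadjusted p under 0.05 was given to 2 family genes, Igf2 and Igfbp2, and to 3.22% of all genes. The 10 genes spanned log2 fold changes of -0.29 to 0.18, their median was -0.035, and 7 were negative. Over all genes tested the median was 0.0025 and 48.4% were negative.

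**Figure D1:**
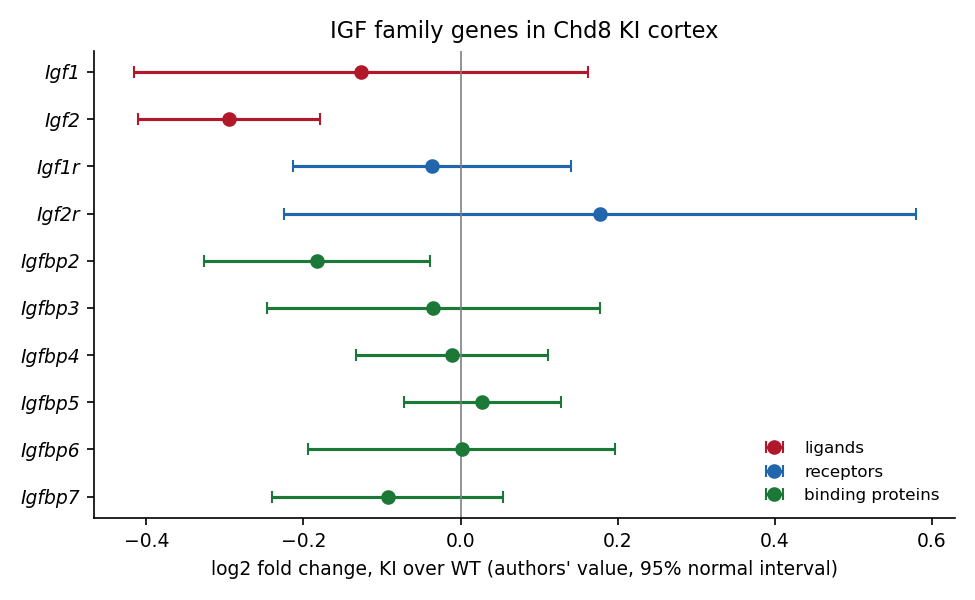
The log2 fold change of each IGF family gene, KI over WT, from the authors' deposited table is plotted on the horizontal axis, with bars for the 95% normal interval and colours for ligands, receptors and binding proteins. The intervals of Igf2 (-0.41 to -0.18) and Igfbp2 (-0.33 to -0.039) lie below 0, and those of the other 8 genes include 0.

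The mean normalised count of Igf2 over the libraries was 1762, higher than 80.7% of the genes tested. Its level in KI cortex was 0.815 of that in WT (95% interval 0.752 to 0.883), a log2 fold change of -0.29 with a standard error of 0.059 in the authors' deposited table. The adjusted p there was 0.0022 by the authors' DESeq2 Wald test, and the gene stood at rank 4 by p. The standard error was 0.965 times the median for genes within 1.2-fold of the same mean count, so the value of Igf2 was about as precise as those of genes of like abundance. The other ligand gene, Igf1, was far less abundant. Its mean normalised count of 182 was higher than 23.3% of genes. The deposited log2 fold change of Igf1 was -0.13 with a standard error of 0.15, and the interval from 0.749 to 1.12 of WT holds changes as large as that of Igf2. Igf1 did not pass the threshold, so the ligands are not shown to differ from each other in their response, and that difference was not tested.

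Igf2 (NCBI gene 16002) lies on chromosome 7 from 142650768 to 142666816 on the minus strand of GRCm38, which corresponds to mm10. It is an imprinted gene in many tissues, where the paternal copy is expressed, but is expressed from both copies in choroid plexus and meninges. The gene has several start sites that are used in different tissues, and the RefSeq promoter table lists 4 of them. The deposited value is for the whole gene, so the fall cannot be assigned to a start site, and the 4 windows are shown because any of them could have contributed reads. Each runs from 250 bases before to 50 bases after the start, 5′ to 3′, from RefSeq for GRCm38.p6. Capitals mark the GC box GGGCGG and the CCAAT box CCAAT, searched on both strands together with the TATA box TATAAA.
Igf2, most upstream start, chr7:142666767-142667066, minus strand: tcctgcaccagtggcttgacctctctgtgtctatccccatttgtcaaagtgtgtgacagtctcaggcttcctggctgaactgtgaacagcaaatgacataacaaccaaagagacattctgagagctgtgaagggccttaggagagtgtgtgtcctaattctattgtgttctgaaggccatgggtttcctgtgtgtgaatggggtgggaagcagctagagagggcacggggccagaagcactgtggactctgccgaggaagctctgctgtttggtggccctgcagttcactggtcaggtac
Igf2, next start, chr7:142661222-142661521, minus strand: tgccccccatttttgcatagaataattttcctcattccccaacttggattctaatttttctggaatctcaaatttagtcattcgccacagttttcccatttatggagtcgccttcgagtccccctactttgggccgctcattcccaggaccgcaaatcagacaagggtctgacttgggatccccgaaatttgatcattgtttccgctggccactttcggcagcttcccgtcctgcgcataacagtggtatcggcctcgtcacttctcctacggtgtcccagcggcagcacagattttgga
Igf2, start after that, chr7:142658755-142659054, minus strand: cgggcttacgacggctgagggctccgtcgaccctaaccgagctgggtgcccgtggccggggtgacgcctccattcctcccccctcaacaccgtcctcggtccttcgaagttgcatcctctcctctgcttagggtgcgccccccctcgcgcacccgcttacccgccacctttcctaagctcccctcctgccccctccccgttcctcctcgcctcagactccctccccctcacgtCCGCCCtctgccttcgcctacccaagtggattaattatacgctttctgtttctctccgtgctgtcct
Igf2, most downstream start, chr7:142657447-142657746, minus strand: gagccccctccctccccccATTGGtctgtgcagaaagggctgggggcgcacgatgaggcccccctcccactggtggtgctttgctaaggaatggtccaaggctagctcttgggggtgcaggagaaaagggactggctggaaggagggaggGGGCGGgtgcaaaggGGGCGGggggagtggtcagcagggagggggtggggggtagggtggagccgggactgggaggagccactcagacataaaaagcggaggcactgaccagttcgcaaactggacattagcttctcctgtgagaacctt

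The windows differ in composition. The most upstream window held 2 CpG dinucleotides, the next 14, the one after it 24 and the most downstream 7, against a median of 7 over the 32851 promoter windows in the table. The window with 24 CpG dinucleotides had 1 GC box, the most downstream had 2 GC boxes and 1 CCAAT box, and the other 2 had none of the 3 motifs. A GC box is present in 35.7% of all windows, a CCAAT box in 37.4% and a TATA box in 13.6%. These matches describe the letters alone and show no use of any start.

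The receptor transcripts did not pass the threshold. Igf1r, which encodes the signalling receptor (mean normalised count 1276), stood at a log2 fold change of -0.036 with a standard error of 0.090 in the authors' deposited table. Its interval, 0.863 to 1.10 of WT, holds no fall as large as the point value of Igf2. The interval does overlap that of Igf2 (0.752 to 0.883), and the difference between the genes was not tested. Igf2r, the clearance receptor (mean normalised count 832), stood at 0.18 with a standard error of 0.21 in the same deposited table, and its interval ran from 0.856 to 1.49 of WT. The value for Igf2r was the least precise of the family. Its standard error was 2.80 times the median for genes of like mean count and larger than 97.9% of them, whereas the other 9 genes lay between 0.845 and 1.38 times. A ratio of 2 or more was seen for 310 of 13660 genes, or 2.27%. The libraries behind the spread of Igf2r were not identified, since the table holds no values of single libraries. Igf2r is itself an imprinted gene in the mouse, and Airn, the long non-coding RNA of its locus, overlaps it over 28396 bases on chromosome 17. Airn was not among the genes tested, and whether counting used strand is not stated in the sources used here.

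**Figure D2:**
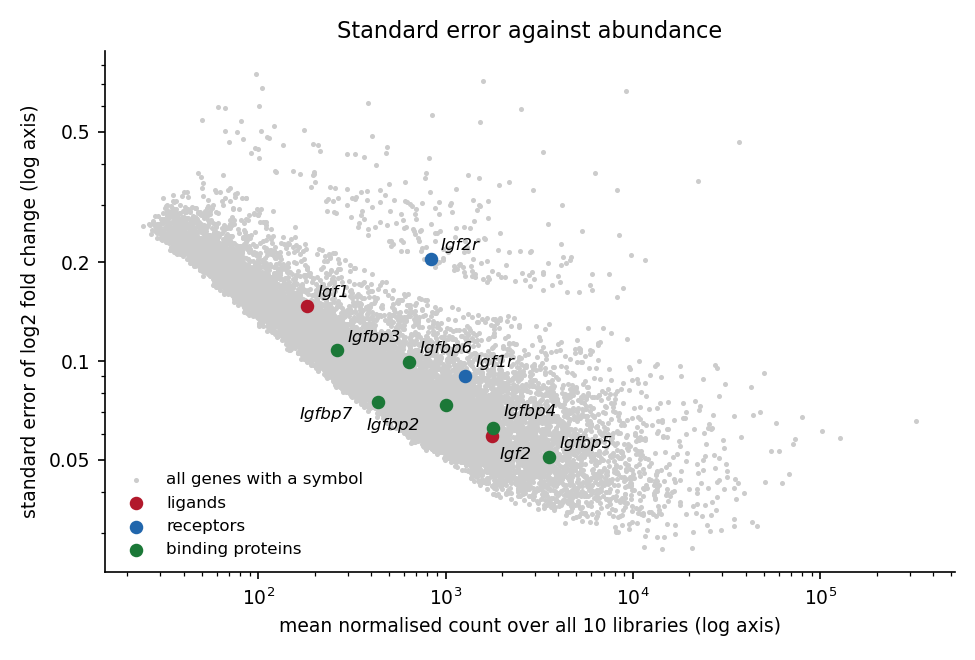
The standard error of the log2 fold change is plotted against the mean normalised count over all 10 libraries, both on log axes, with all genes that have a symbol in grey and the IGF family in colour. Igf2r, at a standard error of 0.21, lies above the main band of genes, and Igf2, at 0.059, lies inside it.

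Among the binding proteins Igfbp2 stood apart in size without passing the threshold. Igfbp2, which encodes a carrier abundant in the meninges, choroid plexus and astrocytes, had a mean normalised count of 1008. Its level in KI was 0.881 of WT (interval 0.798 to 0.973), a log2 fold change of -0.18 with a standard error of 0.073 in the authors' deposited table. The unadjusted p there was 0.0127 and the adjusted p rounded to 1.0 by the authors' DESeq2 Wald test. Igfbp7, known from endothelial cells and pericytes, followed at a deposited log2 fold change of -0.093 with a standard error of 0.075 (mean normalised count 438, interval 0.847 to 1.04 of WT). Its standard error was 0.845 times the median at its abundance, the lowest such ratio of the family.

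The remaining 4 binding proteins lay near 0. Igfbp5, with a mean normalised count of 3585, stood at a log2 fold change of 0.028 with a standard error of 0.051 in the authors' deposited table. Igfbp4, whose mean normalised count of 1788 was close to that of Igf2, stood at -0.010 with a standard error of 0.062 in the same deposited table. At nearly equal abundance and error, the interval of Igfbp4 (0.912 to 1.08 of WT) did not overlap that of Igf2 (0.752 to 0.883). That is a description of 2 intervals from the same libraries, and the difference between the genes was not tested. Igfbp6, with a mean normalised count of 639, stood at 0.0014 with a standard error of 0.0995 in the deposited table. Igfbp3, the main carrier of IGFs in serum, had a mean normalised count of 262 and a deposited log2 fold change of -0.035 with a standard error of 0.11. The 95% interval lay within ±0.5 on the log2 scale for 9 of the 10 family genes, all but Igf2r, and within ±0.25 for 6 of them.

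Igfbp2 and Igfbp5 lie side by side on chromosome 1, in opposite orientation and with their ends 5.59 kb apart. Igfbp2 (gene 16008) runs from 72824480 to 72852474 on the plus strand and Igfbp5 (16011) from 72858065 to 72874865 on the minus strand. The pair stood at deposited log2 fold changes of -0.18 and 0.028. Their intervals overlap between -0.072 and -0.039, and the difference between them was not tested. The RefSeq table gives 2 windows for Igfbp2 and 1 for Igfbp5. The upstream Igfbp2 window is printed because Igfbp2 and Igf2 were the members whose intervals lay below 0. It held 18 CpG dinucleotides and 3 GC boxes, in capitals, and neither a TATA box nor a CCAAT box, while the Igfbp5 window held 10 CpG dinucleotides and none of the 3 motifs.
Igfbp2, upstream start, chr1:72824230-72824529, plus strand: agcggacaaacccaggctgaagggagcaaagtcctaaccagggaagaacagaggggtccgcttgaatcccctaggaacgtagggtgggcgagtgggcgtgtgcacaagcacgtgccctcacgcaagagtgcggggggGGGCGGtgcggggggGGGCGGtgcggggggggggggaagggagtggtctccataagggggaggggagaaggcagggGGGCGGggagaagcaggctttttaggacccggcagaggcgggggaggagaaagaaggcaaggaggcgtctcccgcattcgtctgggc

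The other genes of the family are placed on GRCm38 as follows. Igf1 (16000) is on chromosome 10 from 87858265 to 87937047, Igf1r (16001) on chromosome 7 from 67952257 to 68233668, and Igf2r (16004) on chromosome 17 from 12682406 to 12769706. Igfbp3 (16009) is on chromosome 11 from 7206086 to 7215498, Igfbp4 (16010) on the same chromosome from 99040005 to 99052655, Igfbp6 (16012) on chromosome 15 from 102144186 to 102149512, and Igfbp7 (29817) on chromosome 5 from 77349240 to 77408045. All 10 are protein-coding and each value is for a whole gene. The ends of Igfbp7 and Polr2b overlap by 89 bases, and Polr2b stood at a deposited log2 fold change of -0.045 with a standard error of 0.054. Igf2os overlaps Igf2 and Igf1os overlaps Igf1, and neither was among the genes tested.

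Levels can be compared between genes only per length. As mean normalised count per kilobase of merged exons, the order was Igfbp5 (597), Igfbp6 (574), Igfbp2 (546), Igfbp4 (405), Igfbp7 (362), Igf2 (308), Igf2r (89.4), Igfbp3 (83.8), Igf1r (76.0) and Igf1 (18.4). Igf2 was the more abundant of the ligands by this measure. The spread over libraries is unknown, so neighbours in this order were not told apart. The order also depends on the length used, among the leading genes and among the lower ones. Per kilobase of the longest transcript, an alternative chosen after seeing the data, Igfbp2 came first at 771 and Igfbp5 stood at 597, and Igf2 at 373 stood above Igfbp7 at 365. By that measure Igf1r (112) stood above Igfbp3 (108) and Igf2r (93.6), the reverse of the order per kilobase of merged exons.

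Downstream and regulatory genes of the IGF and insulin pathway did not pass the threshold. Of 48 such genes on a list written by role, 43 were tested, and 0 were called in either direction. Over all 13660 genes 0.0732% were called. At that share a count of 0 in a list of this size or smaller, here or below, says little about its genes. An unadjusted p under 0.05 was given to 1 of them, Akt2, encoding the Akt kinase of insulin-responsive glucose uptake, at a log2 fold change of -0.13 with a standard error of 0.056 in the authors' deposited table (unadjusted p = 0.021). The median of the 43 was 0.0078, with 19 negative, and their intervals lay within ±0.25 for 33 and within ±0.5 for 40.

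Among the extracellular regulators 3 of 6 genes were tested. Pappa2, encoding a protease that cleaves IGF binding proteins, stood at a deposited log2 fold change of -0.22 with a standard error of 0.17. Stc1 and Stc2, which encode stanniocalcins, inhibitors of those proteases, stood at -0.038 and -0.044 in the deposited table with standard errors of 0.15 and 0.22. Their mean normalised counts of 47.3 to 85.9 limit the precision. Insr, the insulin receptor gene, was the tested member of its group of 3 and stood at 0.10 with a standard error of 0.090 in the deposited table.

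All 14 receptor adaptor genes were tested, with 7 negative and 7 positive and a median log2 fold change of 0.0023. Those with the smallest p were the adaptors Shc3 at 0.099, Shc2 at 0.066 and Sos1, a Ras exchange factor, at 0.063 in the authors' deposited table, with standard errors of 0.092, 0.063 and 0.070. Irs1 and Irs2, the main docking proteins of IGF1R and the insulin receptor, stood at -3.3e-04 and 0.0099 in the deposited table with standard errors of 0.10 each. The 25 genes of the PI3K, Akt and mTOR cascade had a median of 0.011, and 16 were positive. Beside Akt2, the smallest p-values there belonged to Rheb, the GTPase that activates mTOR, at -0.094 and Pik3cb, a catalytic subunit of PI3K, at -0.085 in the deposited table, with standard errors of 0.057 and 0.061. Mtor, the kinase on which the cascade converges, stood at 0.0089 in the same deposited table.

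**Figure D3:**
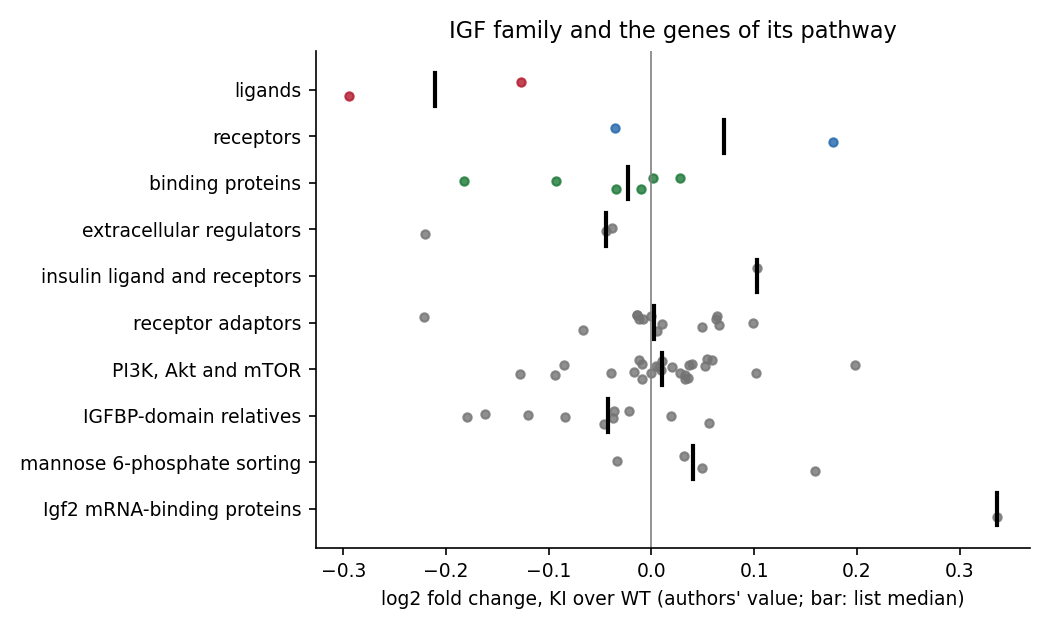
Each point is the log2 fold change of 1 gene, KI over WT, from the authors' deposited table, in rows by role, and the black bar is the median of the row. The median is -0.21 for the 2 ligands, 0.0023 for the receptor adaptors and 0.011 for the PI3K, Akt and mTOR genes.

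Proteins that handle IGF2R cargo and Igf2 mRNA showed no call either. Of the mannose 6-phosphate sorting genes 4 of 4 were tested, 3 were positive and 0 had an unadjusted p under 0.05. M6pr, the cation-dependent mannose 6-phosphate receptor, stood at -0.034 with a standard error of 0.062 in the authors' deposited table. Gnptab, which starts the mannose 6-phosphate tag, stood at 0.050, and Nagpa, which completes it, at 0.16 in the same deposited table. Their standard errors were 0.055 and 0.12. Of the 3 genes for Igf2 mRNA-binding proteins only Igf2bp3 was tested. It was a weakly expressed transcript (mean normalised count 96.3) at 0.34 with a standard error of 0.19 in the deposited table (unadjusted p = 0.084).

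Markers of the tissues that are known to make IGF2 had mostly negative values. The marker lists here and below were written with earlier results of these data known, so their counts are no independent evidence of a direction. Of 25 meningeal fibroblast markers, all tested, 22 were negative with a median log2 fold change of -0.20, and 0 were called. Of these markers 4 had an unadjusted p under 0.05, all lower. Over all genes tested 3.22% had such a p in either direction, which is the share to set beside the counts of the lists below as well. Those with the smallest p were Fmod, a collagen-binding proteoglycan, at -0.44 with a standard error of 0.14, the sulfate transporter gene Slc13a4 at -0.28 with 0.11, and Omd, another proteoglycan, at -0.53 with 0.23, all from the authors' deposited table. The most abundant of the list, Cldn11 at -0.083 and Ccn3 at 0.056 in the deposited table, are also expressed by oligodendrocytes and by neurons. The mean normalised counts of the 25 markers summed to 12108, and the least abundant stood at 32.4. The median of all genes tested was 0.0025.

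Choroid plexus epithelium, where IGF2 is secreted into the cerebrospinal fluid, gave like values. Of its 15 markers, all tested, 13 were negative with a median of -0.23, 0 were called, and 9 had an unadjusted p under 0.05, of which 8 were lower. Kl, encoding klotho, stood at -0.40 with a standard error of 0.11 and Enpp2, encoding autotaxin, at -0.18 with 0.059 in the authors' deposited table. Tmem72 went the other way at 0.67 with a standard error of 0.21 in the deposited table, without passing the threshold. Ttr, encoding transthyretin, a secreted product of this epithelium, had a mean normalised count of 13144 and stood at -0.12 with a standard error of 0.096 in the deposited table. The markers summed to 26392 mean normalised counts, most of them from Ttr and Enpp2 (10918). Whether the reads of Enpp2 came from this epithelium or from other cells was not tested. The deposited log2 fold change of Igf2, -0.29, lay within the range of both lists (-0.55 to 0.060 and -0.51 to 0.67), and that of Igfbp2, -0.18, did too. Both also lay within the range of the thalamic markers (-1.34 to 0.090). Igfbp2 lay within the mural cell (-0.29 to 0.097) and inhibitory neuron (-0.19 to 0.13) ranges as well, and below that of the astrocyte markers (-0.15 to 0.11). Igf2 lay below the ranges of the remaining lists, though by little for the mural cell list (-0.295 against -0.288). The lowest meningeal marker, Zic1 at -0.55 in the deposited table, is on the thalamic list as well, and the next lowest was Omd. The levels of these tissues in single libraries were not analysed here, and their part in the values of Igf2 and Igfbp2 was not tested.

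Thalamic markers held further calls. Of 13 listed genes 12 were tested, 11 were negative with a median of -0.48, and 4 were called lower, against 0.0659% of all genes. Among the 4 were Tnnt1 at -1.34 with a standard error of 0.26 and Tcf7l2 at -0.92 with 0.19 in the authors' deposited table (adjusted p = 0.0013 and 0.0022, authors' DESeq2 Wald test). The others were Prkcd at -1.20 with 0.29 and Ramp3 at -0.40 with 0.090 in the same deposited table. Most of these genes were put on the list knowing their values, so its count is no independent evidence of a direction. Ramp3 lies 529 kb from Igfbp3 on chromosome 11, and Igfbp3 stood at -0.035 in the deposited table. All 10 oligodendrocyte markers were negative with a median of -0.081, 0 called and 2 at an unadjusted p under 0.05. Those 2 were Cnp at -0.10 with a standard error of 0.038 and Mog at -0.16 with 0.067 in the deposited table.

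Markers of the vascular, microglial and neuronal sources lay closer to 0, and 0 were called in each list. An unadjusted p under 0.05 was given to 1 endothelial, 0 mural, 1 microglial, 0 inhibitory neuron, 2 excitatory neuron and 1 astrocyte markers. The 16 endothelial markers had a median of 0.024 with 7 negative, and 12 of 14 mural cell markers were tested with a median of -0.052 and 8 negative. The endothelial marker with an unadjusted p under 0.05 was Esam, at 0.22 with a standard error of 0.10 in the authors' deposited table. Slc2a1, the endothelial glucose transporter, stood at 0.11 with a standard error of 0.071, and the pericyte gene Vtn at -0.11 with 0.069, in the same deposited table. Igfbp7, at -0.093, lay within the ranges of the endothelial (-0.12 to 0.22) and mural (-0.29 to 0.097) markers. The 14 microglial markers had a median of 0.014 with 7 negative, and the 16 inhibitory neuron markers a median of -0.013 with 10 negative. Siglech, a microglial gene, stood at 0.22 with a standard error of 0.10 and Pvalb, of fast-spiking interneurons, at -0.15 with 0.079 in the deposited table. Igf1, at -0.13, lay within the ranges of the microglial (-0.17 to 0.22) and inhibitory (-0.19 to 0.13) markers. It also lay within the meningeal, choroid plexus, mural, astrocyte, oligodendrocyte and thalamic ranges. Igfbp7 lay within the range of every list but that of excitatory neurons. Lying within a range therefore does not mark out a source for either gene. Excitatory neuron markers had 12 of 14 positive with a median of 0.052. The 2 with an unadjusted p under 0.05 were Nr4a2 at 0.22 with a standard error of 0.065 and Camk2a at 0.12 with 0.042 in the deposited table. Astrocyte markers had 6 of 11 negative with a median of -0.0084, and Aldh1l1 stood at -0.13 with a standard error of 0.062 in the deposited table.

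**Figure D4:**
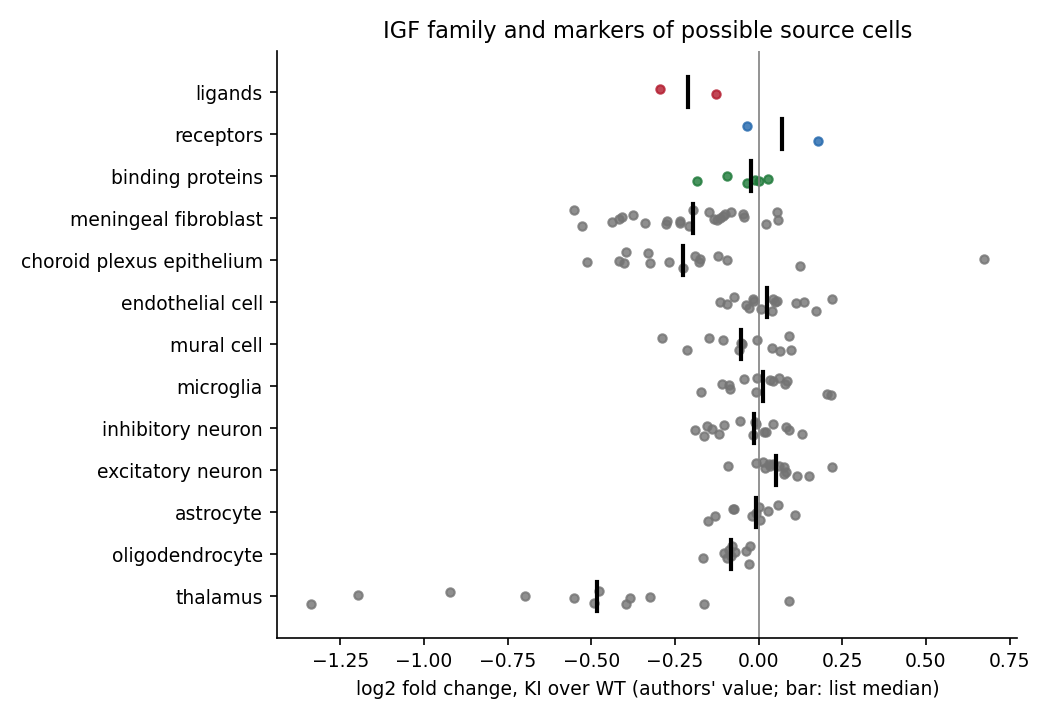
Each point is the log2 fold change of 1 gene, KI over WT, from the authors' deposited table, with the IGF family in the upper 3 rows, marker genes of possible source cells below, and a black bar at the median of each row. The meningeal (-0.20), choroid plexus (-0.23) and thalamic (-0.48) medians lie below 0, and the endothelial (0.024), microglial (0.014) and inhibitory neuron (-0.013) medians lie near it.

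The genes around Igf2 were compared with it because the locus is regulated as an imprinted domain. Of 21 genes on a list for this region 10 were tested, while H19, Ins2 and Igf2os, its closest neighbours on that list, were not among the genes tested. Within 1 Mb of Igf2 16 genes were tested and 0 were called, or had an unadjusted p under 0.05. They spanned log2 fold changes of -0.17 to 0.25, their median was -0.019, and 11 of 16 were negative. The nearest tested gene on one side was Mrpl23, a mitochondrial ribosomal protein gene 110 kb away, at -0.15 with a standard error of 0.11 in the authors' deposited table. On the other side it was Th, encoding tyrosine hydroxylase, 226 kb away, at -0.17 with a standard error of 0.25 in the deposited table. The imprinted genes Cdkn1c, a cell cycle inhibitor, and Kcnq1ot1, a non-coding RNA, stood at -0.056 and 0.25 in the deposited table with standard errors of 0.13 and 0.38. Of the abundant genes of the region, Ctsd, Cd81 and Dusp8 stood at -0.012, -0.030 and 0.038 in the deposited table with standard errors of 0.051, 0.042 and 0.048. Their values lay above the upper bound of the Igf2 interval, -0.18, and the difference from Igf2 was not tested.

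**Figure D5:**
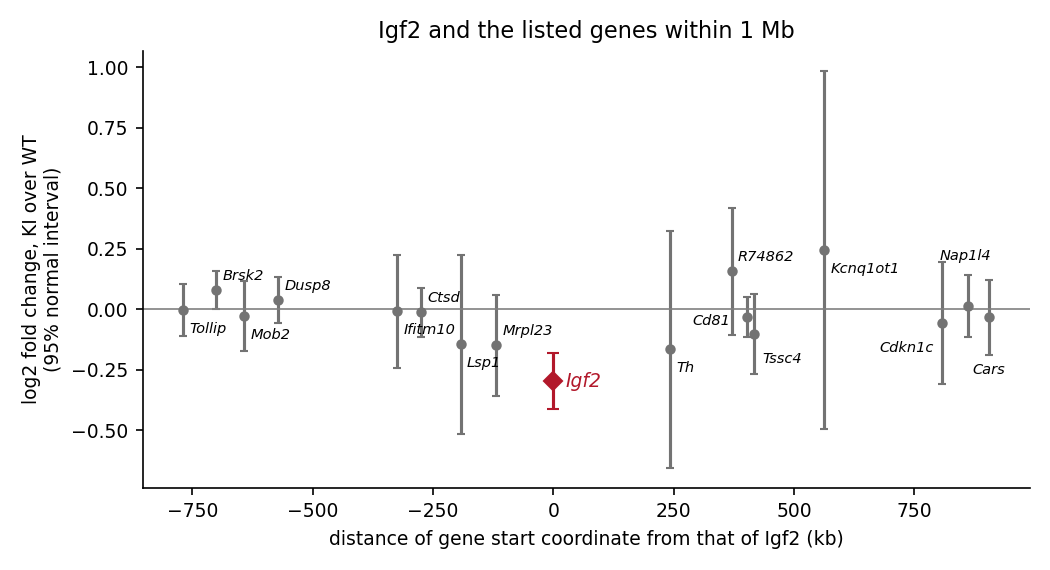
The log2 fold change of Igf2 (red diamond) and of the 16 tested genes within 1 Mb (grey points), KI over WT, is plotted against the distance in kilobases of each gene's start coordinate from that of Igf2, with 95% normal intervals. The point of Igf2, at -0.29, is the lowest of those shown, and the intervals of the neighbours include 0.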

How the data were processed

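RNA-seq was made from cortex of 5 WT and 5 Chd8 KI mice. Per the submitters' processing notes the tools were Trimmomatic 0.39, HISAT2 2.1.0, featureCounts 2.0.0 and DESeq2 1.26.0, and the build was mm10. Settings, annotation, strand use, filter and model were not stated. The authors deposited 1 table of the KI and WT comparison for 13661 genes, and per-library counts were not used here.

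Per the file headers, the table holds the mean normalised count over libraries (a signal, normalised by the authors), the log2 fold change and its standard error, the Wald score, and the p-value and adjusted p. The deposited score equalled the log2 fold change over its standard error, and the deposited adjusted p equalled a Benjamini-Hochberg adjustment over 13660 genes. The lowest mean normalised count was 24.4, so weak genes were not analysed here. The depth of each library is unknown.

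Symbols came from RefSeq GRCm38.p6 for 13497 gene numbers and from GENCODE M21 for 2, and 162 had none. Intervals are 95% normal intervals from the deposited values. Merged exon and transcript lengths came from GENCODE M21. Calls are the authors' DESeq2 adjusted p under 0.05 over all genes, since no counts were given for the foreseen edgeR fit. The genes named are all 10 members, and others drawn from the called genes and the 3 with the smallest p of each list, and the 2 most abundant source markers. Irs1, Irs2, Mtor, Th, Polr2b, Cdkn1c, Kcnq1ot1, Ctsd, Cd81, Htra1 and Crim1 were added for their role or position. The members and all lists, 240 genes of which 218 were tested, were chosen with earlier results of these data known. Recomputations used Python 3.11.15, scipy 1.17.1 and statsmodels 0.14.6, and were tested on simulated data.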

Additional observations from a re-analysis of the deposited data

How the results depend on the processing

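The count of 1 called family gene, Igf2, and the count of 0 called among the other pathway genes were the same in each alternative run. These were mean normalised counts of at least 50 or 200, Wald scores divided by their robust SD of 0.855, and removal of the trend with transcript length. Adjusted p thresholds of 0.1 and 0.01 and a minimum log2 change of 0.2 were also run. With those thresholds and that minimum neither count could change. Igf2 had an adjusted p of 0.0022 and a log2 fold change of -0.29. The first gene past the calls, Ace, had an adjusted p of 0.208 (authors' DESeq2 Wald test). Over all genes, the count of calls was 23 with rescaled scores against 10, 8 with the length trend removed over the 13098 genes that have a length, 7 at a minimum of 200 and 6 at the threshold of 0.01. Over those 13098 genes with no trend removed, an alternative added after seeing the data, it was 10, and the counts of 1 and 0 above were the same. The adjusted p of Igf2 from the Wald scores ran from 2.0e-05 to 0.0033. Its log2 fold change was -0.29, and -0.30 with the length trend removed. The latter is the score left after removal times the deposited standard error, not a new fit. Igfbp2 did not pass under any of these, and its adjusted p was 0.348 with rescaled scores. Of the 39 values of single members, 39 kept their direction and side of the threshold. Sizes did move with the length trend removed: Igf2r went from 0.18 to 0.090 and Igf1r from -0.036 to -0.081. The count minima and the rescaling leave the fold change as it was, so its direction could change only with the length trend removed. Igf1 has no value at the minimum of 200, since its mean count is lower. Other normalizations, count tests and leaving out single libraries were not run, as these need counts. No paired analysis was possible because the table holds no values of single libraries.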

Other observations

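Proteins that share the IGF-binding domain without being classical carriers were also read from the table, since transcripts of this kind were not described with the family. Of 12 such genes 10 were tested, 8 were negative with a median log2 fold change of -0.042, and 0 were called or had an unadjusted p under 0.05. Ccn1, an immediate early matrix protein gene, stood at -0.18 with a standard error of 0.24, Igfbpl1 at -0.16 with 0.22, and Htra3, a secreted protease gene, at -0.12 with 0.15 in the authors' deposited table. Htra1, a protease gene of astrocytes, had a mean normalised count of 3254 and stood at -0.038 with a standard error of 0.077 in the deposited table. Ccn3, with a mean normalised count of 2898, stood at 0.056 with 0.091, and Crim1, with 1888, at -0.046 with 0.068, again in the deposited table.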
